A study of Mus musculus with 24 samples.

Results

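The genes described here are 10 NF-kB subunits, inhibitors and targets, namely the subunit genes Rela, Relb, Nfkb1 and Nfkb2, the inhibitor-family genes Bcl3, Nfkbia and Nfkbie, and the target genes Tnfaip2, Tnfaip3 and Icam1. They were taken by symbol from the annotation of the array, which gave 13 probes of 9 of the 10 genes, out of 45281 probes and 18762 named genes on the arrays. Nfkb1 was not analysed here. Tnfaip2 was read by 3 probes, Nfkbia and Nfkbie by 2 each and every other gene by 1. Where several probes of a gene were expressed, the brightest on average stands for the gene.

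NF-kB is a family of dimeric transcription factors that are held inactive in the cytoplasm by inhibitor proteins of the IkB family until a receptor signal has the inhibitor phosphorylated by the IKK kinases and degraded. In the canonical branch, signals from the TNF receptor, the interleukin-1 receptor and toll-like receptors free dimers that contain RelA. In the non-canonical branch, the kinase NIK has the p100 precursor encoded by Nfkb2 cut to p52, which acts together with RelB. Several inhibitors and subunits of the family are themselves targets of NF-kB, and in the kidney NF-kB drives adhesion molecules and chemokines in tubular, endothelial and inflammatory cells.

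RNA was extracted from whole kidneys of 24 mice of the FVB strain, and each mouse had its own Illumina MouseWG-6 v2.0 array, in 6 groups of 4. TgUmodC147W and TgUmodwt mice were compared at 1 month in males (M1) and females (F1) and at 2 months in females (F2). TgUmodC147W mice carry a transgene for uromodulin with the C147W change and TgUmodwt mice one for wild type uromodulin, both under a fragment of the mouse Umod promoter, which is active in the thick ascending limb of the loop of Henle. The TgUmodwt mice are thus transgenic controls. Because whole kidney was measured, more cells of a type and more RNA per cell cannot be told apart.

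Values are normalized log2 intensities. A probe counted as detected on an array if its detection p-value was under 0.01, and a gene entered a comparison if at least 1 of the arrays compared detected it. Differences were tested with limma on the arrays of each comparison, p-values were adjusted by the Benjamini-Hochberg method over all expressed probes, and a gene was called higher or lower at an adjusted p under 0.05. Where no array of the dimmer group detected a probe, the fold is given only as a lower bound, for which each array of that group was set to the lowest signal it detected if the probe lay below it, and no fold is given where that bound is under 1.

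Detected probes made up 38.4 to 39.6% of all probes in TgUmodC147W males and 35.3 to 36.4% in TgUmodwt males of 1 month, 37.3 to 38.3% in TgUmodC147W and 35.9 to 36.8% in TgUmodwt females of 1 month, and 36.6 to 37.6% in TgUmodC147W and 35.8 to 37.6% in TgUmodwt females of 2 months. The kidney label was borne out by Umod at 15.88, 15.91 and 15.92 in the TgUmodC147W groups M1, F1 and F2 and at 15.76, 15.82 and 15.80 in the matched TgUmodwt groups. Transgenic and endogenous Umod share this probe. TgUmodC147W F1 replicate 2 had Xist, the RNA of the inactive X chromosome, at 4.99, which was within the 4.97 to 5.21 of the males and far under the 10.59 to 11.53 of the other females. It is labelled female, and where a call of a gene named here in females of 1 month changes without it, the value without it is also given.

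RefSeq promoter windows of the build GRCm38.p6, from 250 bases before a gene's start to 50 bases from it on, were at hand for 8 of the 10 genes, in 11 windows. They were searched on both strands for the kappaB consensus, the 10-base motif that NF-kB dimers bind. It stood in windows of 6 of the 8 genes, against 9.55% of the 27025 genes and 8.46% of the 32851 windows searched. A match describes the letters of the window and does not show binding. The stretches around the matches of Nfkb2, Bcl3, Nfkbia, Nfkbie and Tnfaip2 are shown because the measured levels of these genes differed between the genotypes, with the motif in capitals and each sequence written in the direction of transcription.
Nfkb2 (chr19:46304673-46304733, plus strand, overlapping matches): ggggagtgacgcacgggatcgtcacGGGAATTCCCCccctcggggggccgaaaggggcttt
Bcl3 (chr7:19822734-19822763, minus strand): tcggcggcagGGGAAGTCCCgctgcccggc
Nfkbia (chr12:55492648-55492701, minus strand): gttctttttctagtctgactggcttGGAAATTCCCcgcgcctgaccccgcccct
Nfkbie (chr17:45555569-45555628, plus strand): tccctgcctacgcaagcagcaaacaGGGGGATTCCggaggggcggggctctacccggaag
Tnfaip2 (chr12:111442612-111442660, plus strand): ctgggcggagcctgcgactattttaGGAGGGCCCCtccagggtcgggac
The match shown ends 29 bases before the start in Nfkb2, 20 in Nfkbia, 97 in Nfkbie and 15 in Tnfaip2. In Bcl3 it covers bases 3 to 12 of the transcript. The windows of Nfkb2, which overlap in part, held 3, 2 and 1 matches. Its stretch shows only the overlapping matches of the first window, and the lower-case end of that stretch holds the first bases of a further match. A window of Tnfaip3 held 2 matches, while the windows of Rela and Icam1 held none.

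Relb, which encodes the subunit that pairs with p52 in the non-canonical branch, was higher in TgUmodC147W than in TgUmodwt kidneys in all 3 comparisons. In males of 1 month its log2 intensity was 6.63, 7.08, 7.07 and 6.72 on the TgUmodC147W arrays and 5.86, 6.06, 6.03 and 5.94 on the TgUmodwt arrays. All TgUmodC147W arrays were above all TgUmodwt arrays, and Relb was detected on 4 of the 4 TgUmodC147W arrays and on 0 of the 4 TgUmodwt arrays. The means were 6.88 ± 0.23 in TgUmodC147W and 5.97 ± 0.09 in TgUmodwt males (SD, n = 4 each), which gives at least 1.17-fold higher Relb in TgUmodC147W males (limma, adjusted p = 0.000158).

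Relb in females of 1 month was 6.82, 7.21, 7.05 and 6.70 in TgUmodC147W and 6.50, 6.16, 6.61 and 6.14 in TgUmodwt kidneys. The groups did not overlap, and again 4 TgUmodC147W and 0 TgUmodwt arrays detected it, so that Relb was at least 1.28-fold higher (limma, adjusted p = 0.0194). Without TgUmodC147W F1 replicate 2, the array with Xist at the level of the males, the adjusted p was 0.0562, and it was 0.0502 without TgUmodC147W F1 replicate 3, 0.0526 without TgUmodwt F1 replicate 2 and 0.0553 without TgUmodwt F1 replicate 4 (limma).

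At 2 months Relb in females was 7.03, 6.72, 7.23 and 7.62 in TgUmodC147W and 6.47, 6.33, 6.75 and 6.39 in TgUmodwt kidneys. The lowest TgUmodC147W array lay just under the highest TgUmodwt array. Relb averaged 7.15 ± 0.38 in TgUmodC147W and 6.48 ± 0.18 in TgUmodwt females (SD, n = 4 each), 0.67 higher on the log2 scale (standard error 0.17, adjusted p = 0.0396, limma). This call stood in only 2 of the 8 fits that left out 1 array, with differences of 0.51 to 0.71 in the others. It was lost without TgUmodC147W F2 replicate 1 (adjusted p = 0.0626), 3 (0.108) or 4 (0.0755) and without TgUmodwt F2 replicate 1 (0.0733), 2 (0.113) or 4 (0.0889), and without a filter on dim probes (0.0954), all by limma.

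Nfkb2, which encodes p100, the precursor of p52, was near the detection limit throughout, with 4 of 24 arrays detecting it, all of them TgUmodC147W. In males of 1 month it was 6.37, 6.38, 6.05 and 6.02 in TgUmodC147W and 5.47, 5.99, 5.95 and 5.81 in TgUmodwt kidneys. The groups were apart by a narrow margin, and Nfkb2 was called higher (limma, adjusted p = 0.0340). The means were 6.21 ± 0.20 in TgUmodC147W and 5.80 ± 0.24 in TgUmodwt males (SD, n = 4 each), and no fold is given because its bound was under 1. The call was lost without TgUmodC147W M1 replicate 1 (adjusted p = 0.0876) or 2 (0.0832), without TgUmodwt M1 replicate 1 (0.0913) or 4 (0.0678), and in 4 of the 11 other processing settings that kept the gene, with adjusted p = 0.0646 to 0.0698 (limma).

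In females of 1 month Nfkb2 averaged 6.21 ± 0.23 in TgUmodC147W and 5.82 ± 0.16 in TgUmodwt kidneys (SD, n = 4 each, adjusted p = 0.0639, limma). In females of 2 months the means were 6.29 ± 0.28 in TgUmodC147W and 5.93 ± 0.08 in TgUmodwt kidneys (SD, n = 4 each, adjusted p = 0.129, limma). Neither difference passed the threshold with all arrays. In females of 1 month the adjusted p was 0.0276 without TgUmodC147W F1 replicate 3, 0.0419 with arrays scaled to a common median and 0.0457 in 1 fit over all 24 arrays, and in females of 2 months it was 0.0189 without TgUmodC147W F2 replicate 1 (limma).

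Rela, which encodes the activating subunit of the canonical branch, was detected on all 24 arrays and passed the test in no comparison. Its levels in females of 2 months were 11.12, 11.12, 11.27 and 11.31 in TgUmodC147W and 10.87, 10.99, 11.04 and 10.98 in TgUmodwt kidneys. These groups did not overlap, but the difference was small, 0.23 on the log2 scale (95% interval 0.04 to 0.42, adjusted p = 0.143, limma). The differences were 0.10 (95% interval -0.10 to 0.31) in males and 0.21 (-0.02 to 0.43) in females of 1 month.

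Bcl3, an atypical IkB protein of the nucleus that binds p50 and p52 dimers and can activate or repress through them, was higher in TgUmodC147W females at both ages. In females of 1 month it was 7.19, 7.41, 7.15 and 6.94 on the TgUmodC147W arrays and 6.23, 6.2, 5.96 and 6.10 on the TgUmodwt arrays. Every TgUmodC147W array detected it and no TgUmodwt array did, and the lowest TgUmodC147W array stood well above the highest TgUmodwt array. The means were 7.17 ± 0.19 in TgUmodC147W and 6.12 ± 0.12 in TgUmodwt females (SD, n = 4 each), at least 1.5-fold higher in TgUmodC147W females (limma, adjusted p = 0.000390). Without TgUmodC147W F1 replicate 2 the adjusted p was 0.00116 (limma).

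Bcl3 in females of 2 months was 6.86, 7.40, 7.64 and 7.61 in TgUmodC147W and 6.06, 6.86, 6.19 and 6.49 in TgUmodwt kidneys. The lowest TgUmodC147W and the highest TgUmodwt array both read 6.86 after rounding, and the other arrays were apart. The means of 7.38 ± 0.36 in TgUmodC147W and 6.4 ± 0.35 in TgUmodwt females (SD, n = 4 each) differed 1.97-fold (limma, adjusted p = 0.0142). In males of 1 month Bcl3 was 6.77, 6.76, 7.07 and 6.86 in TgUmodC147W and 6.75, 6.58, 6.49 and 6.83 in TgUmodwt kidneys. These groups overlapped and the difference of 0.21 did not pass the test (95% interval -0.02 to 0.43, adjusted p = 0.145, limma).

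Nfkbia encodes IkBa, the classical inhibitor that NF-kB induces as its own feedback. In males of 1 month it was 10.04, 10.20, 10.52 and 9.91 in TgUmodC147W and 9.44, 9.47, 9.32 and 9.43 in TgUmodwt kidneys. The TgUmodwt males lay close together and every TgUmodC147W male was above them. The means of 10.17 ± 0.26 in TgUmodC147W and 9.42 ± 0.07 in TgUmodwt males (SD, n = 4 each) differed 1.68-fold (limma, adjusted p = 0.000738). A second, dimmer probe of Nfkbia differed by 0.13 there and was not called (limma, adjusted p = 0.437).

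In females Nfkbia overlapped between the genotypes at both ages. It was 10.28, 9.81, 9.94 and 10.51 in TgUmodC147W and 9.50, 9.79, 10.07 and 9.91 in TgUmodwt females of 1 month (difference 0.32, 95% interval -0.05 to 0.69, adjusted p = 0.239, limma). At 2 months the means were 9.83 ± 0.28 in TgUmodC147W and 9.72 ± 0.25 in TgUmodwt females (SD, n = 4 each, adjusted p = 0.756, limma).

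Nfkbie encodes IkBe, another inhibitor that holds dimers in the cytoplasm. It was higher in TgUmodC147W females of 2 months, at 7.64, 7.89, 7.84 and 8.01, against 7.46, 6.98, 7.15 and 6.63 in TgUmodwt females. The groups did not overlap, and the means of 7.84 ± 0.15 in TgUmodC147W and 7.06 ± 0.34 in TgUmodwt females (SD, n = 4 each) differed 1.73-fold (limma, adjusted p = 0.0123). At 1 month the difference was 0.20 in females (95% interval -0.10 to 0.50, adjusted p = 0.359) and 0.07 in males (-0.10 to 0.25, adjusted p = 0.500, limma). The other probe of Nfkbie was detected on 0 of the 24 arrays.

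Icam1, the adhesion molecule that leukocyte integrins bind on endothelial and epithelial cells, was higher in TgUmodC147W females at both ages. In females of 1 month it was 9.85, 10.29, 10.04 and 10.17 in TgUmodC147W and 9.31, 9.45, 9.32 and 9.37 in TgUmodwt kidneys, with no overlap. The means of 10.09 ± 0.19 in TgUmodC147W and 9.36 ± 0.07 in TgUmodwt females (SD, n = 4 each) differed 1.65-fold (limma, adjusted p = 0.00149), and without TgUmodC147W F1 replicate 2 the adjusted p was 0.00475 (limma).

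Icam1 in females of 2 months was 10.34, 10.32, 10.54 and 10.24 in TgUmodC147W and 9.82, 9.69, 9.49 and 9.34 in TgUmodwt kidneys. These groups were again apart, and the fold was 1.72 (limma, adjusted p = 0.00304). The TgUmodC147W males of 1 month split into a pair at 10.18 and 10.21 and a pair at 9.72 and 9.58, against 9.65, 9.59, 9.59 and 9.60 in TgUmodwt males. The difference of 0.32 in males did not pass the test (95% interval 0.02 to 0.62, adjusted p = 0.0917), but it did without TgUmodC147W M1 replicate 2, which held the 9.58 (adjusted p = 0.0201, limma).

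Tnfaip2 encodes an endothelial and myeloid protein induced by TNF. In males of 1 month it was 10.23, 10.63, 10.22 and 10.24 in TgUmodC147W and 9.49, 9.62, 9.55 and 9.67 in TgUmodwt kidneys. The groups were clearly apart. The means of 10.33 ± 0.20 in TgUmodC147W and 9.58 ± 0.08 in TgUmodwt males (SD, n = 4 each) differed 1.68-fold (limma, adjusted p = 0.000300). In these males 7 of 9 expressed endothelial and 13 of 17 expressed macrophage and monocyte markers were called higher too, beside 21.9% of all genes. Their part in the level of Tnfaip2 was not tested. The other 2 probes of Tnfaip2 were called there as well, with differences of 0.92 and 0.90 on the log2 scale.

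Tnfaip2 in females of 1 month was 10.42, 10.39, 10.05 and 10.13 in TgUmodC147W and 10.06, 9.99, 10.19 and 10.02 in TgUmodwt kidneys, so that the groups overlapped (difference 0.19, 95% interval -0.05 to 0.42, adjusted p = 0.278, limma). None of its 3 probes was called. In females of 2 months it was 10.11, 10.25, 10.60 and 10.52 in TgUmodC147W and 9.74, 9.92, 9.91 and 10.12 in TgUmodwt kidneys, a difference of 0.45 that fell just short of the threshold (adjusted p = 0.0538, limma), while 1 of the other 2 probes was called (adjusted p = 0.0381, limma). The probe with the highest mean was called in 10 of 20 alternatives there, among them the fits without TgUmodC147W F2 replicate 1 (adjusted p = 0.0328) and without TgUmodwt F2 replicate 4 (0.0471).

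Tnfaip3, which encodes the ubiquitin-editing enzyme A20 that shuts off NF-kB signalling, was detected on only 2 of the 24 arrays, TgUmodC147W F1 replicate 3 at 6.91 and TgUmodC147W F2 replicate 2 at 6.60. It did not enter the comparison of the genotypes in males. Its means were 6.36 ± 0.37 in TgUmodC147W and 6.04 ± 0.24 in TgUmodwt females of 1 month (adjusted p = 0.277) and 6.03 ± 0.40 in TgUmodC147W and 5.93 ± 0.08 in TgUmodwt females of 2 months (SD, n = 4 each, adjusted p = 0.789, limma).

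**Figure D1:**
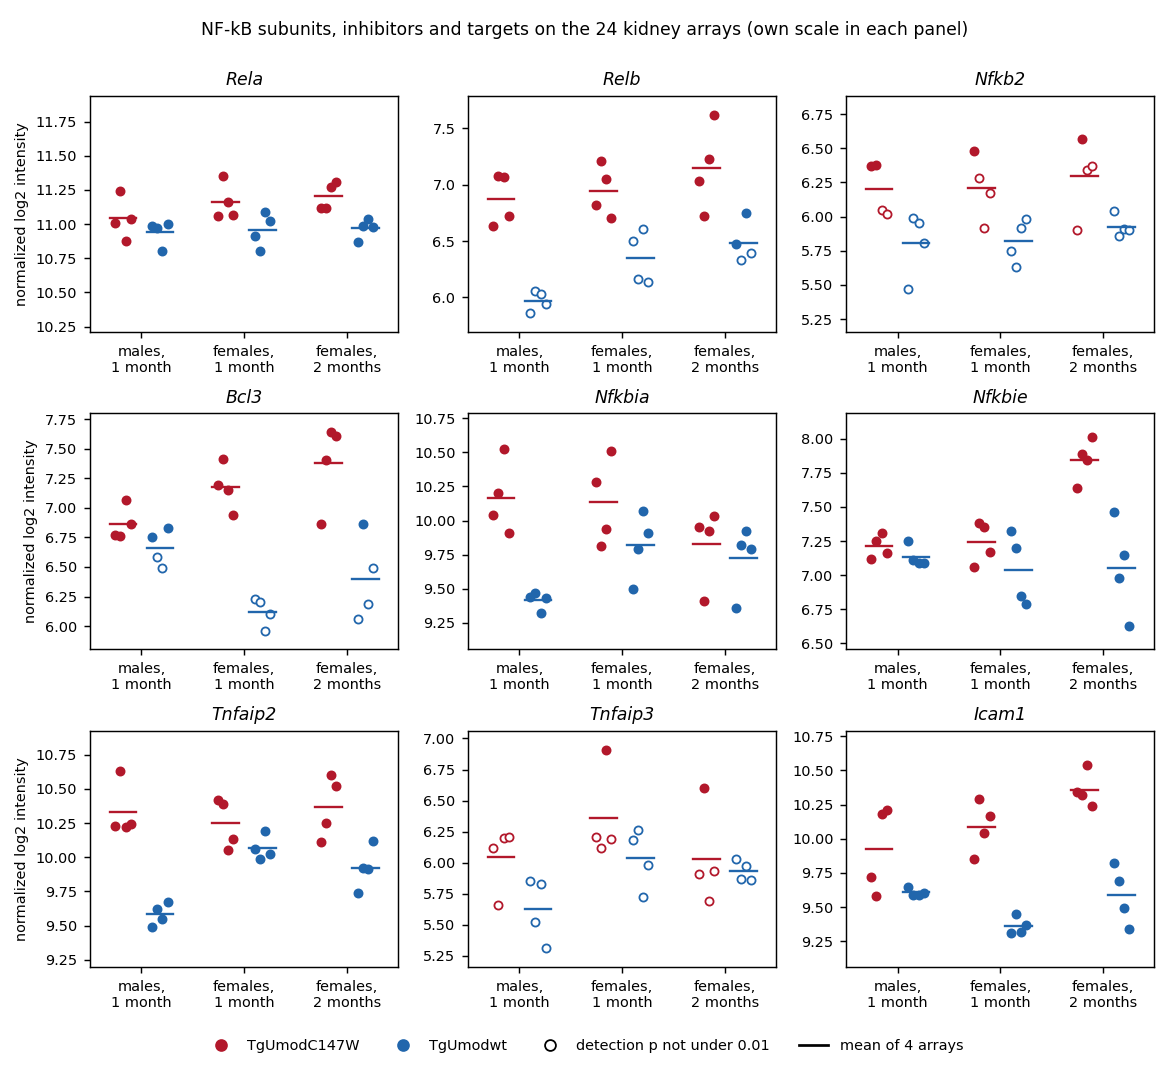
Normalized log2 intensity (vertical axis, its own range in each panel) of the 9 measured NF-kB genes on the 24 arrays, by sex and age (horizontal axis), with TgUmodC147W in red and TgUmodwt in blue, filled where the array detected the probe, open where it did not, and a bar at the mean of 4. Relb lies higher in TgUmodC147W in all 3 pairs, whereas the TgUmodwt levels of Bcl3 and Tnfaip2 themselves differ between males and females of 1 month.

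Counted together, 4 of the 8 NF-kB genes expressed in males of 1 month were called higher in TgUmodC147W and 0 lower, where 37.3% of all 10132 expressed genes were called and 21.9% called higher. In females of 1 month 3 of 9 were called higher, beside 18% of 9971 genes called and 10.4% called higher. Without TgUmodC147W F1 replicate 2 these shares of all genes were 11.9% and 7.05%, and 2 NF-kB genes, Bcl3 and Icam1, were called. In females of 2 months 4 of 9 were called higher, beside 8.48% of 9854 genes called and 5.42% called higher. Those shares were 5.01% and 3.39% without TgUmodC147W F2 replicate 3 and 5.33% and 3.57% without TgUmodwt F2 replicate 2. The groups did not overlap for 4, 3 and 4 of the expressed NF-kB genes, where 37.6%, 23.5% and 16.1% of all genes did not overlap.

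These counts hold genes that passed the detection filter only through the TgUmodC147W arrays, and such genes had to be higher there. They were Relb and Nfkb2 in males, Relb, Nfkb2, Bcl3 and Tnfaip3 in females of 1 month, and Nfkb2 and Tnfaip3 in females of 2 months. Among genes detected in both genotypes, 2 of 6 NF-kB genes were called higher in males (20.1% of such genes overall), 1 of 5 in females of 1 month (9.25%) and 4 of 7 in females of 2 months (4.72%). The median difference of these was 0.26, 0.21 and 0.67 on the log2 scale, beside 0.02, 0.00 and -0.01 over all genes detected in both genotypes. Arrays scaled to a common median in place of quantile normalization shifted the median of all genes in males to 0.11, against 0.04 after quantile normalization, and the share of calls that were higher to 71.4%, against 58.7%. In females of 2 months that share was 48.9%, against 63.9%, and for the interaction with sex 71.0%, against 51.3%. The differences of the expressed NF-kB genes were above 0 under each of the 5 scalings tried, in 8 of 8, 9 of 9 and 9 of 9 genes. Of these, 2, 4 and 2 were genes that passed the filter only through TgUmodC147W. Their sign was set by the filter, so that the count bears only on the 6, 5 and 7 genes detected in both genotypes.

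**Figure D2:**
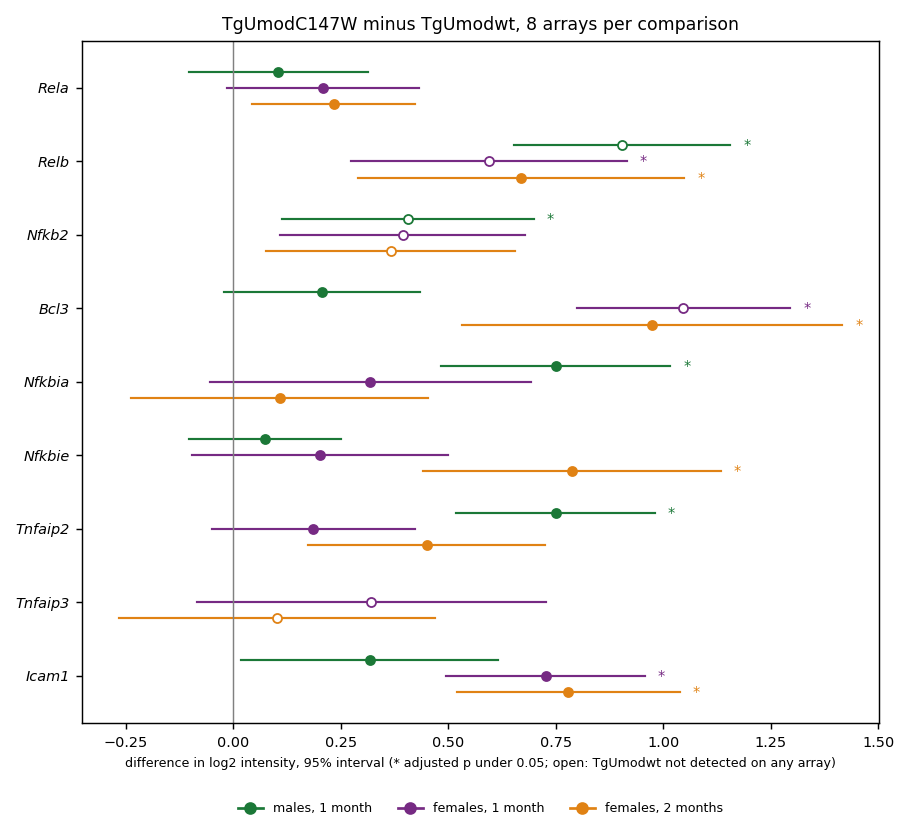
Difference in log2 intensity between TgUmodC147W and TgUmodwt kidneys (horizontal axis) with its 95% interval for each NF-kB gene (vertical axis) in M1, F1 and F2, 8 arrays each. Stars mark adjusted p under 0.05 and open symbols a gene that no TgUmodwt array detected. Relb is starred in all 3 comparisons, Bcl3 and Icam1 in females, Nfkbie in females of 2 months, Nfkb2, Nfkbia and Tnfaip2 in males, and Rela and Tnfaip3 nowhere.

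Markers of some other cell types moved along with these genes. Of 17 expressed macrophage and monocyte markers, 13 were called higher in TgUmodC147W males and 13 in TgUmodC147W females of 1 month, and 14 of 16 in females of 2 months. Their summed level on the linear scale was 9425 to 16168 (median 11630) in TgUmodC147W and 4506 to 8117 (median 5060) in TgUmodwt males, 13231 to 25402 (median 15606) in TgUmodC147W and 5327 to 7629 (median 5471) in TgUmodwt females of 1 month, and 18564 to 20878 (median 19580) in TgUmodC147W and 5581 to 6869 (median 5863) in TgUmodwt females of 2 months. Without TgUmodC147W F1 replicate 2, 10 of 16 macrophage and monocyte markers were called in females of 1 month, with Adgre1, Mpeg1 and Tyrobp lost (adjusted p = 0.0677, 0.13 and 0.0760, limma). Of the 4 pan-leukocyte markers Ptprc was detected on no array, and of the 3 expressed ones 1, 2 and 3 were called higher in TgUmodC147W in M1, F1 and F2. The summed level of these 3 was 2370 to 3389 in TgUmodC147W and 2211 to 2494 in TgUmodwt males, 3331 to 4696 in TgUmodC147W and 2412 to 3084 in TgUmodwt females of 1 month, and 4648 to 5953 in TgUmodC147W and 2974 to 3359 in TgUmodwt females of 2 months. In females of 2 months Cd52 was 1.54-fold, Coro1a 1.77-fold and Laptm5 1.68-fold higher (adjusted p = 0.00898, 0.000295 and 0.00186, limma), and the call of Coro1a in females of 1 month was lost without TgUmodC147W F1 replicate 2 (adjusted p = 0.0926, limma).

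Of 9 expressed endothelial markers, 7 were called higher in TgUmodC147W males, 0 in females of 1 month and 1 in females of 2 months. Their summed level was 22608 to 22835 in TgUmodC147W and 16216 to 18328 in TgUmodwt males, 21080 to 23985 in TgUmodC147W and 18411 to 21058 in TgUmodwt females of 1 month, and 18520 to 21114 in TgUmodC147W and 17991 to 19587 in TgUmodwt females of 2 months. All 5 expressed markers of injured tubules, Lcn2 and Vcam1 among them, were higher in TgUmodC147W in each comparison. Of the 4 markers of the thick ascending limb, where the Umod promoter is active, 3 were called higher in TgUmodC147W males, 1 in females of 1 month and 0 in females of 2 months, with median differences of 0.51, 0.19 and 0.11. They were Cldn16, Slc12a1 and Kcnj1 in males (1.82-fold, 1.44-fold and 1.41-fold, adjusted p = 0.000147, 0.00138 and 0.000827) and Cldn16 in females of 1 month (1.67-fold, adjusted p = 0.00546, limma). The summed level of the 4 was 95363 to 104558 in TgUmodC147W and 76965 to 84939 in TgUmodwt males, 94653 to 106084 in TgUmodC147W and 87153 to 92429 in TgUmodwt females of 1 month, and 99078 to 103245 in TgUmodC147W and 86733 to 96810 in TgUmodwt females of 2 months, so that the sums of the genotypes did not overlap in any of the 3. Most of this sum is Umod, whose probe also reads the transgene and lies near the highest signal of the arrays. Taken singly, 4, 2 and 0 of the 4 markers did not overlap in M1, F1 and F2, where 37.6%, 23.5% and 16.1% of all genes did not. Aqp2 of the collecting duct was 1.56-fold higher in TgUmodC147W males and 1.75-fold in females of 1 month (adjusted p = 0.00332 and 0.00532, limma), and Aqp3 was not called. Of 5 proximal tubule markers, 0 were called higher and 1, 1 and 0 lower in TgUmodC147W in M1, F1 and F2. The call in F1 was lost without TgUmodC147W F1 replicate 2. The summed level of the 5 was 150014 to 163867 in TgUmodC147W and 169848 to 177002 in TgUmodwt males, and overlapped between the genotypes in females. Of 2 expressed podocyte markers, 0 were called higher and 0, 1 and 0 lower in the same order. Of all genes, 37.3%, 18% and 8.48% were called. Of the other immune markers, 0 of the B cell list was detected on any array, 1 of the T cell list was expressed in 1 comparison, F2, and not called, and the neutrophil list was down to S100a8, which was not called. Markers detected in only 1 genotype were not set apart in the marker counts. The part of these cells in the levels of the NF-kB genes was not tested.

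The genotype difference itself differed between the sexes for Bcl3 and Tnfaip2. For Bcl3 the difference in males of 1 month was 0.84 smaller on the log2 scale than that in females of 1 month (males minus females -0.84, 95% interval -1.17 to -0.52, adjusted p = 0.00309, limma interaction over 16 arrays). For Tnfaip2 it was 0.56 larger in males (95% interval 0.25 to 0.88, adjusted p = 0.0307, limma), and the other 2 probes were called as well, at 0.67 and 0.68. These were 2 of 9 genes, where 7.68% of 10273 expressed genes were called. Bcl3 was called without any 1 of the 16 arrays and without TgUmodC147W F1 replicate 2 its difference was -0.76 (adjusted p = 0.00636, limma).

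Tnfaip2 lost its call without TgUmodC147W M1 replicate 2 (adjusted p = 0.0509), TgUmodC147W F1 replicate 3 (0.0570) or 4 (0.0583), TgUmodwt M1 replicate 1 (0.0669) or 3 (0.0574), or TgUmodwt F1 replicate 1 (0.0538) or 3 (0.0594), all by limma. For Icam1 the difference between the sexes was -0.41 (95% interval -0.79 to -0.03, adjusted p = 0.186), for Nfkbia 0.43 (-0.03 to 0.89, adjusted p = 0.263) and for Relb 0.31 (-0.10 to 0.72, adjusted p = 0.368), none of which passed the test.

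Set against each other within a genotype, males and females of 1 month differed in the NF-kB genes of TgUmodwt kidneys, a comparison chosen after the values had been seen. Of 6 genes expressed in TgUmodwt mice of 1 month, 4 were called between males and females, where 26.8% of 9700 genes were called. Bcl3 was higher in TgUmodwt males, at 6.66 ± 0.16, than in TgUmodwt females, at 6.12 ± 0.12 (SD, n = 4 each), at least 1.05-fold since no female array detected it (limma, adjusted p = 0.00250). Icam1 was also higher in TgUmodwt males, at 9.61 ± 0.03, against 9.36 ± 0.07 in TgUmodwt females (SD, n = 4 each, 1.18-fold, adjusted p = 0.0223, limma).

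Tnfaip2 and Nfkbia ran the other way. Tnfaip2 averaged 9.58 ± 0.08 in TgUmodwt males and 10.07 ± 0.09 in TgUmodwt females (SD, n = 4 each), with no overlap, and was 1.40-fold lower in males (limma, adjusted p = 0.00120). Of its other 2 probes 1 was called. Nfkbia averaged 9.42 ± 0.07 in TgUmodwt males and 9.82 ± 0.24 in TgUmodwt females (SD, n = 4 each), 1.32-fold lower in males (limma, adjusted p = 0.0239), while its dimmer probe was not called (difference -0.30, adjusted p = 0.291, limma).

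The calls of Nfkbia and Icam1 each stood in only 4 of the 8 fits that left out 1 array. That of Nfkbia was lost without TgUmodwt M1 replicate 1 (adjusted p = 0.0512), 3 (0.0661) or 4 (0.0520) or TgUmodwt F1 replicate 4 (0.0544), without a filter on dim probes (0.0518) and with the mean of its probes (0.113). That of Icam1 was lost without TgUmodwt M1 replicate 1 (0.0651), 2 (0.0531) or 4 (0.0554) or TgUmodwt F1 replicate 1 (0.0599), and both were lost in 1 fit over all 24 arrays (0.0828 for Nfkbia and 0.168 for Icam1, limma).

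In TgUmodC147W mice of 1 month, 0 of 9 expressed NF-kB genes were called between males and females (limma), with Bcl3 and the 2 dimmer probes of Tnfaip2 at an unadjusted p under 0.05, and 0.0492% of 10155 genes were called. Tnfaip2 was 10.33 ± 0.20 in TgUmodC147W males and 10.25 ± 0.18 in TgUmodC147W females (difference 0.08, 95% interval -0.21 to 0.36), and Nfkbia was 10.17 ± 0.26 in TgUmodC147W males and 10.14 ± 0.32 in TgUmodC147W females (difference 0.03, -0.35 to 0.41, SD, n = 4 each). Bcl3 was 6.87 ± 0.14 in TgUmodC147W males and 7.17 ± 0.19 in TgUmodC147W females (SD, n = 4 each, difference -0.31, -0.57 to -0.04, adjusted p = 0.382, limma). TgUmodC147W F1 replicate 2, with Xist at the level of the males, is 1 of the 4 females here. Without it the differences were 0.12 for Tnfaip2, -0.08 for Nfkbia and -0.23 for Bcl3, and 0 NF-kB genes were called.

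**Figure D3:**
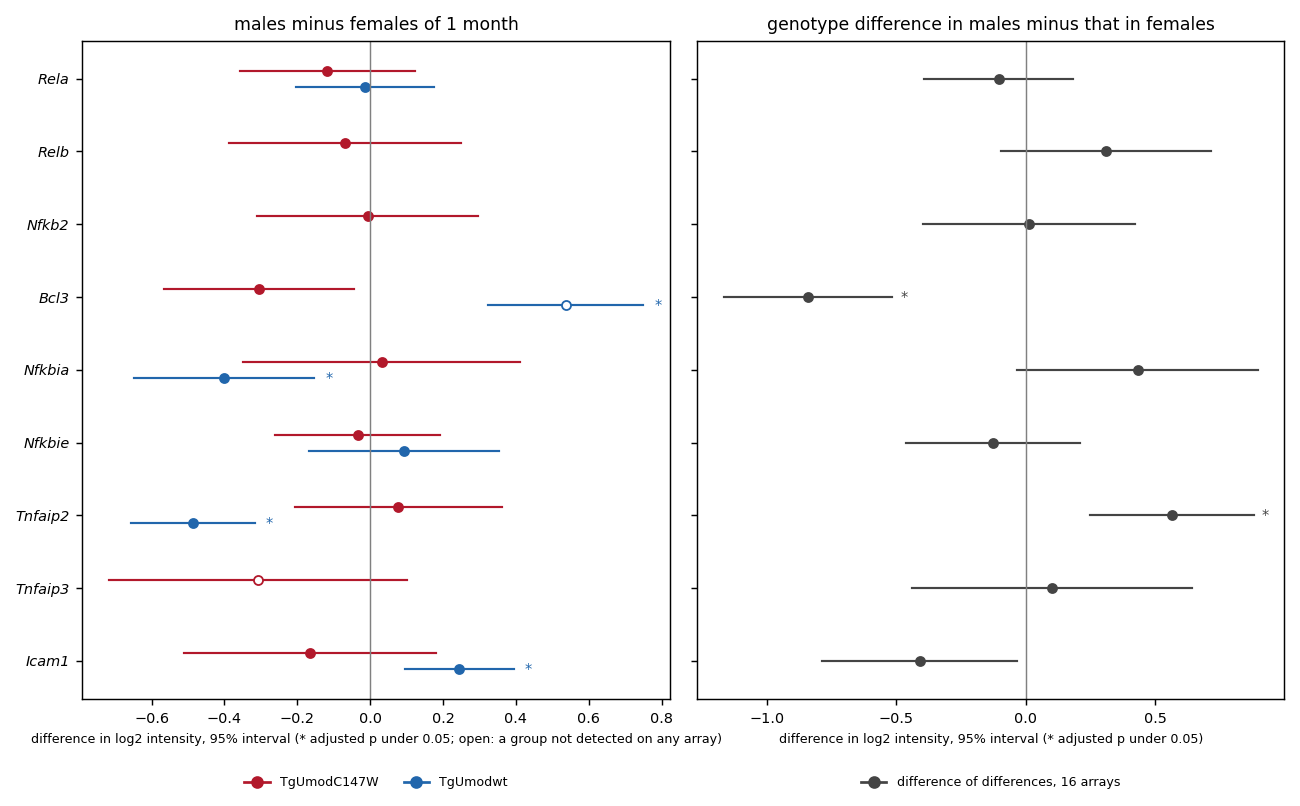
Left, difference in log2 intensity between males and females of 1 month (horizontal axis, 95% interval) for each NF-kB gene (vertical axis) in TgUmodC147W (red) and TgUmodwt (blue) kidneys, and right, the genotype difference in males minus that in females. Stars mark adjusted p under 0.05. The TgUmodwt points of Bcl3 and Icam1 lie right of 0 and those of Nfkbia and Tnfaip2 left of it, while every TgUmodC147W interval but that of Bcl3 spans 0.

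Between 2 months and 1 month, 1 NF-kB gene was called in TgUmodC147W females. Nfkbie was 7.64, 7.89, 7.84 and 8.01 at 2 months, against 7.06, 7.38, 7.35 and 7.17 at 1 month, with no overlap. The means of 7.84 ± 0.15 at 2 months and 7.24 ± 0.15 at 1 month (SD, n = 4 each) differed 1.52-fold (limma, adjusted p = 0.00594, and 0.00989 without TgUmodC147W F1 replicate 2). This was 1 of 9 expressed genes, where 13.1% of 10010 genes were called (47.1% of them higher, and 65.0% with arrays scaled to a common median). No other gene passed the test. Nfkbia was 9.83 ± 0.28 at 2 months and 10.14 ± 0.32 at 1 month (difference -0.31, 95% interval -0.70 to 0.09, adjusted p = 0.299), and Icam1 10.36 ± 0.13 at 2 months and 10.09 ± 0.19 at 1 month (difference 0.28, 0.03 to 0.53, adjusted p = 0.144, SD, n = 4 each, limma).

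In TgUmodwt females 0 of 7 expressed NF-kB genes were called between 2 months and 1 month by limma, 0 of them at an unadjusted p under 0.05, where 3.45% of 9754 genes were called (46.9% of them higher, and 83.9% with arrays scaled to a common median). Nfkbie was 7.06 ± 0.34 at 2 months and 7.04 ± 0.26 at 1 month (SD, n = 4 each, difference 0.02, 95% interval -0.37 to 0.40). The genotype difference of Nfkbie was 0.59 larger at 2 months than at 1 month (95% interval 0.12 to 1.05, unadjusted p = 0.0165), but this did not pass the adjustment (adjusted p = 0.245, limma interaction). A change of the genotype difference with age was called for 0 of 9 NF-kB genes, 1 of them with an unadjusted p under 0.05, where 1.3% of 10146 genes were called (62.1% of them higher, and 40.7% with that scaling). For Relb, Bcl3 and Icam1 the differences between the ages were 0.07 (95% interval -0.43 to 0.58), -0.07 (-0.60 to 0.45) and 0.05 (-0.28 to 0.39). These comparisons share arrays with those of the genotypes.

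The rest of the pathway was read from lists of other subunits and inhibitors, ligands, receptors, adaptors and kinases, and other targets. The counts and medians of these lists also hold genes detected in only 1 genotype, whose direction was set by the detection filter. Tlr4 in males and Nfkbid at 1 month, for instance, were detected on no TgUmodwt array. Such genes were not set apart in these lists. The median differences in M1, F1 and F2 were 0.20, 0.06 and 0.12 for the expressed subunits and inhibitors, 0.09, 0.55 and 0.35 for the ligands, 0.41, 0.22 and 0.22 for the receptors, -0.05, -0.01 and -0.01 for the adaptors and kinases, and 0.20, 0.31 and 0.30 for the targets, beside 0.04, 0.01 and -0.01 over all genes. Of all genes, 37.3%, 18% and 8.48% were called in M1, F1 and F2, and 21.9%, 10.4% and 5.42% were called higher. Of 12 other subunits and inhibitors, 11 were expressed in males of 1 month, 3 of them higher and 1 lower in TgUmodC147W, 1 of 11 was higher in females of 1 month and 1 of 10 in females of 2 months. Nfkbid, which encodes the nuclear inhibitor IkBNS, averaged 6.83 ± 0.18 in TgUmodC147W and 6.19 ± 0.11 in TgUmodwt males (at least 1.13-fold, adjusted p = 0.000795) and 7.09 ± 0.13 in TgUmodC147W and 6.50 ± 0.12 in TgUmodwt females of 1 month (at least 1.42-fold, adjusted p = 0.00332, SD, n = 4 each, limma). No TgUmodwt array of 1 month detected it.

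Cyld, a deubiquitinase that restrains NF-kB, fell in males, to 10.81 ± 0.06 in TgUmodC147W, against 11.25 ± 0.08 in TgUmodwt males (1.36-fold lower, adjusted p = 0.00125), and Ppp4c, a phosphatase subunit, was higher there (1.23-fold, adjusted p = 0.00916). Tnip1, which binds A20, was higher in TgUmodC147W females of 2 months (1.28-fold, adjusted p = 0.0223), and this was lost without TgUmodC147W F2 replicate 3 (0.0595) or 4 (0.0733) or TgUmodwt F2 replicate 2 (0.0750) or 4 (0.0559, SD, n = 4 each, limma). Nfkbiz, another nuclear member of the IkB family, differed by 0.36, 0.38 and 0.29 on the log2 scale in M1, F1 and F2 and was not called. Rel, the subunit of lymphoid and myeloid cells, was detected on no array.

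Of 12 ligands, 3 were expressed in males of 1 month, 2 in females of 1 month and 4 in females of 2 months. Tnfsf13b, which encodes BAFF, a ligand of the non-canonical branch, was higher in TgUmodC147W in all 3 comparisons. It averaged 7.46 ± 0.30 in TgUmodC147W and 6.64 ± 0.11 in TgUmodwt males (1.76-fold, adjusted p = 0.000911), 7.93 ± 0.24 in TgUmodC147W and 7.22 ± 0.19 in TgUmodwt females of 1 month (1.64-fold, adjusted p = 0.00665), and 8.35 ± 0.19 in TgUmodC147W and 7.63 ± 0.26 in TgUmodwt females of 2 months (1.65-fold, adjusted p = 0.0107, SD, n = 4 each, limma). Il18 was lower in males, at 5.82 ± 0.28 on TgUmodC147W arrays, none of which detected it, against 6.88 ± 0.27 on TgUmodwt arrays, a fall of at least 1.47-fold (adjusted p = 0.000467, limma). Of the genes of cytokines that open the canonical and non-canonical branches directly, Tnf, Il1a, Lta and Ltb were detected on no array. Il1b, for interleukin-1 beta, was expressed in females of 2 months and was called in none of the 3 comparisons of the genotypes.

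Of 18 receptor genes, 7 of 11 expressed were higher in TgUmodC147W males of 1 month, 3 of 9 in females of 1 month and 3 of 10 in females of 2 months, and 0 were lower, where 21.9%, 10.4% and 5.42% of all genes were called higher. Cd14, the lipopolysaccharide co-receptor of macrophages and injured tubules, was 1.99-fold higher in TgUmodC147W males of 1 month (adjusted p = 5.24e-05), 2.29-fold in females of 1 month (adjusted p = 0.000557) and 2.79-fold in females of 2 months (adjusted p = 4.69e-05, limma). Tnfrsf12a, the receptor of the cytokine TWEAK, was 1.33-fold (adjusted p = 0.0135), 1.83-fold (0.00356) and 1.89-fold higher (0.00203, limma) in the same order. Tlr4, the lipopolysaccharide receptor, was at least 1.32-fold higher in TgUmodC147W males, whose TgUmodwt counterparts had it undetected (adjusted p = 6.03e-05), and 1.26-fold higher in TgUmodC147W females of 1 month (adjusted p = 0.0374, limma). That call in females was lost without TgUmodC147W F1 replicate 2 (adjusted p = 0.0822) and in 7 of the 8 fits that left out 1 array (0.0544 to 0.111, limma). Tlr2 was 1.79-fold higher in males (adjusted p = 8.31e-05) and 1.38-fold in females of 2 months (adjusted p = 0.0230), where it was lost without TgUmodC147W F2 replicate 1 (0.0522) or 3 (0.0754) or TgUmodwt F2 replicate 2 (0.0625, limma). Ltbr, the lymphotoxin receptor, differed by 0.07, 0.08 and 0.23 on the log2 scale and was not called.

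Of 27 adaptors and kinases, 22 had a named probe, with 3 higher and 1 lower of 19 expressed in males of 1 month, 0 higher and 1 lower of 19 in females of 1 month and 0 of 19 in females of 2 months. Of all genes 37.3%, 18% and 8.48% were called in these comparisons. In males Traf2, an adaptor of TNF receptors, was 1.66-fold (adjusted p = 0.000228) and Tirap, an adaptor of toll-like receptors, 1.32-fold higher in TgUmodC147W (adjusted p = 0.00235), and Irak2 was 1.25-fold lower (adjusted p = 0.0239). The call of Irak2 was lost without TgUmodC147W M1 replicate 1 (0.0658) or TgUmodwt M1 replicate 3 (0.0716) or 4 (0.0693, limma). Card10 was 1.32-fold lower in TgUmodC147W females of 1 month (adjusted p = 0.0101, limma). The kinase genes Ikbkb, for IKKb, and Map3k14, for NIK, were not called. Ikbkb differed by -0.18, -0.25 and -0.03 and Map3k14 by -0.21, 0.33 and 0.34 on the log2 scale in M1, F1 and F2.

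Of 40 other targets, 25 were expressed in males of 1 month, with 10 higher and 1 lower in TgUmodC147W, 24 in females of 1 month, with 7 higher and 1 lower, and 24 in females of 2 months, with 9 higher and 1 lower. Of all genes, 37.3%, 18% and 8.48% were called in these comparisons, and 21.9%, 10.4% and 5.42% were called higher. Lcn2, the tubular injury marker lipocalin 2, was 10.2-fold higher in TgUmodC147W males of 1 month (adjusted p = 0.000215), 18.5-fold in females of 1 month (adjusted p = 4.06e-05) and 20.7-fold in females of 2 months (adjusted p = 3.79e-08, limma). The neutrophil chemokine Cxcl1 was 1.71-fold (adjusted p = 0.00410), 2.12-fold (0.00627) and 2.30-fold higher (0.000263, limma). Ccl5, a T cell and monocyte chemokine, averaged 7.62 ± 0.24 in TgUmodC147W and 6.41 ± 0.28 in TgUmodwt females of 2 months (SD, n = 4 each, 2.31-fold, adjusted p = 0.00112, limma) and was called higher at 1 month in both sexes. In females of 1 month that call (adjusted p = 0.0443) was lost without TgUmodC147W F1 replicate 2 (0.100) and in 6 of the 8 fits that left out 1 array (0.0758 to 0.109, limma). Vcam1, an adhesion molecule like Icam1 that was singled out after its values had been seen, was 2.18-fold, 1.97-fold and 1.88-fold higher (adjusted p = 0.000211, 0.000286 and 0.000203, limma).

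Cxcl9, a chemokine that interferon gamma induces, was lower in TgUmodC147W females. It averaged 6.84 ± 0.16 in TgUmodC147W and 8.05 ± 0.23 in TgUmodwt females of 2 months (SD, n = 4 each, 2.32-fold lower, adjusted p = 0.000295), and it was at least 1.14-fold lower in TgUmodC147W females of 1 month (adjusted p = 0.0310, limma). The call at 1 month was lost in 5 of the 8 fits that left out 1 array (adjusted p = 0.0564 to 0.0798), though not without TgUmodC147W F1 replicate 2. Irf1 and Bcl2l1 were not called, with differences of 0.13, 0.40 and 0.02 for Irf1 and 0.14, -0.04 and -0.26 for Bcl2l1 on the log2 scale. Ccl2, Il6, Sele, Ptgs2, Birc3 and Nos2, which are classical targets, were detected on no array.

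In the other pathway lists the genotype difference of 11 genes was called between males and females of 1 month, where 7.68% of all 10273 expressed genes were called. The signed value of males minus females was positive for 4 of 11 receptors (the toll-like receptor genes Tlr2 and Tlr4, Ly96 for the co-receptor of TLR4, and Tnfrsf11a for RANK). It was also positive for Tirap and Traf2 among 19 adaptors and kinases. It was negative for Map3k14 of the same list, Cyld among 11 subunits and inhibitors and Il18 among 3 ligands. Cd83 and the cytokine gene Il34 among 26 targets had negative values too (limma interaction). Cyld and Il18 were themselves lower in TgUmodC147W males, so that their negative values do not mean a smaller change in males. The value for Map3k14 was -0.55 (males minus females, adjusted p = 0.0308) and for Tlr4 0.54 (adjusted p = 0.0195, limma). The calls of Tlr4, Tnfrsf11a, Cd83 and Il34 stood without any 1 of the 16 arrays. Each of the other 7 calls was lost in 8 to 13 of the 16 fits that left out 1 array, with adjusted p from 0.0504 to 0.103 (limma), and those of Traf2, Cyld and Tlr2 were lost without TgUmodC147W F1 replicate 2 (0.0809, 0.0584 and 0.0577).

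**Figure D4:**
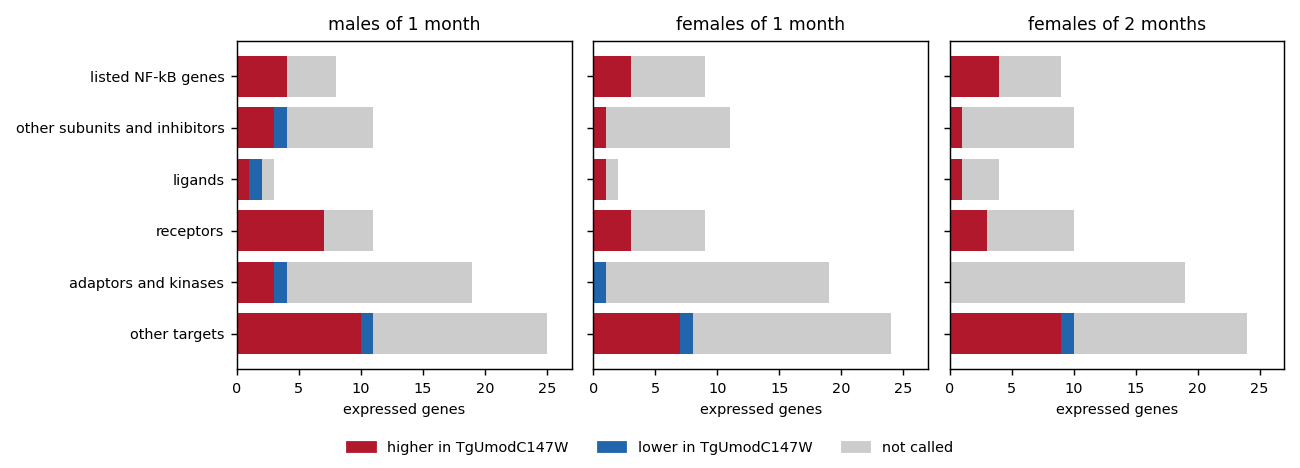
Number of expressed genes (horizontal axis) that were higher in TgUmodC147W (red), lower (blue) or not called (grey) in the listed NF-kB genes and in 5 lists of other pathway genes (vertical axis), in M1, F1 and F2. Receptors and other targets hold most of the genes called higher, and adaptors and kinases hold few, in lists of unequal length. In M1, F1 and F2, 10 of 25, 7 of 24 and 9 of 24 expressed other targets were higher. Of the listed NF-kB genes 4 of 8, 3 of 9 and 4 of 9 were, beside 21.9%, 10.4% and 5.42% of all genes.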

How the data were processed

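Kidney RNA of 24 mice was read on Illumina arrays. The deposited intensities are GenomeStudio probe signals on a linear scale, with no normalization between arrays, and the authors deposited a detection p-value with each. Their second deposited table holds intensities normalized by cubic spline and was used as an alternative. The 2 tables give another ID to 13666 of 45281 probes (30.2%), so that probes were matched by the ranks of their signals. A probe kept a gene name only if both IDs led to the same gene. Names came from the gene table of GRCm38.p6, or from the annotation of the array where that table lacked the gene. All 13 probes of the NF-kB genes have the same gene in both tables.

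Background correction by the detection p-values, an offset of 16, quantile normalization and log2 were applied with neqc (limma 3.58.1, R 4.3.3). The limma fits took the 8 arrays of a comparison (16 for interactions) and the probes that any of these arrays detected (p under 0.01), and p-values were adjusted over all such probes by the Benjamini-Hochberg method. The number of arrays limits the precision. The fits were tested on simulated data with the means and spread of the measured probes. Of 50 probes changed 1.5-fold, 40%, 50% and 72% were called in M1, F1 and F2. Of 50 changed 2-fold, 94%, 86% and 82% were called. Promoters were searched in Python 3.11.15.

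The NF-kB genes and the other lists were chosen with earlier results of these data known. Of each pathway list, up to 4 genes past the test with the largest change are named, and 1 or 2 others with their values. Alternatives were the authors' table, an offset of 50, scaling to a common median, no background correction, no or a stricter detection filter, 1 fit over all arrays, a trended prior, a replicate block, names by either table, the mean of a gene's probes, and leaving out each array, which was applied to the single genes of the other lists after their values had been seen. Same-numbered arrays are different mice. Their deviations correlated at 0.12 to 0.36 in all 4 pairs of TgUmodwt females of 2 months and 1 month, where the replicate block called 0 NF-kB genes, as did the fit without it, and at -0.14 to 0.29 in the other comparisons of genotypes or ages.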

Additional observations from a re-analysis of the deposited data

Results flagged for a closer look

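Of 54 sets of 4 arrays (9 genes in 6 groups), 4 held 1 array that stood far from the other 3, and chance gives about 1 in 20. Rela read 10.80 on TgUmodwt M1 replicate 3, against 10.97 to 11.00 on the others of its group. Tnfaip2 read 10.63 on TgUmodC147W M1 replicate 2, against 10.22 to 10.24. Tnfaip3 read 6.91 on TgUmodC147W F1 replicate 3, against 6.12 to 6.21, and 5.66 on TgUmodC147W M1 replicate 2, against 6.12 to 6.21. The genotype difference differed between males and females of 1 month, by the interaction test of limma, for Bcl3 (-0.84, adjusted p = 0.00309) and Tnfaip2 (0.56, adjusted p = 0.0307). The TgUmodwt F1 arrays did not detect Bcl3, so that the size of its difference rests on signals near the background.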

How the results depend on the processing

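Under 20 alternatives for each comparison of 8 arrays and 28 for each interaction, no difference of an NF-kB gene that was called under either setting changed its direction. The number of NF-kB genes called ranged from 3 to 4 in males of 1 month, from 2 to 4 in females of 1 month, from 3 to 5 in females of 2 months, and stayed at 1 in TgUmodC147W and 0 in TgUmodwt females between the ages, and at 0 for the change of the genotype difference with age. With the replicate block the adjusted p of Tnfaip2 in females of 2 months was 0.0333, against 0.0538 without it, and that of Icam1 between TgUmodwt males and females was 0.0598, against 0.0223, and the block changed no other call. The number of genes whose genotype difference depended on sex was 2, and 1 to 2 when single arrays were left out. Between TgUmodwt males and females it was 4, but 2 in 1 fit over all 24 arrays and 2 to 4 when single arrays were left out, and between TgUmodC147W males and females it was 0 throughout. Arrays scaled to a common median moved the median difference of all genes between the ages in TgUmodwt females to 0.15, against -0.004, where 0 NF-kB genes were called. A block for the beadchip was not run, since the labels name none. Relb, Nfkb2, Bcl3 and Tnfaip3 went undetected on some arrays, so that their differences are limited by the background. In the pathway lists, counts of calls moved by over 1.5 times under some alternatives for ligands (2, range 1 to 3) and adaptors and kinases (4, range 2 to 5) in males, for subunits and inhibitors (1, range 1 to 2), ligands (1, range 1 to 2), receptors (3, range 2 to 5) and adaptors and kinases (1, range 1 to 4) in females of 1 month, and for subunits and inhibitors (1, range 0 to 3), ligands (1, range 1 to 3) and adaptors and kinases (0, range 0 to 3) in females of 2 months. When single arrays were left out, the share of all genes called was 8.50 to 13.0% between the ages in TgUmodC147W females, 1.84 to 3.02% in TgUmodwt females and 0.572 to 3.01% for the change of the genotype difference with age.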
